A study of Mus musculus with 11 samples.

Results

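Expression of 9 genes of serine synthesis and one-carbon metabolism was examined in RNA-seq libraries labelled as mouse cerebellar hemisphere. The genes were Phgdh, Psat1, Psph, Shmt1, Shmt2, Mthfd2, Gldc, Amt and D2hgdh, taken by name from the 22609 genes of the deposited count table, and all 9 were among the 17557 genes with at least 10 reads over all libraries that were tested. The 11 libraries comprised 3 from control mice, 3 from NFKO mice (Pcp2-Cre;NfascFx/Fx), 2 from AnkGKO mice (Pcp2-Cre;AnkGFx/Fx) and 3 from DKO mice (Pcp2-Cre;NfascFx/Fx;AnkGFx/Fx). By the series description the controls were NfascFx/Fx;AnkGFx/Fx littermates without a Cre allele, whereas the study's own text gives them in 1 place with Pcp2-Cre and in another as carrying 1 or 2 floxed genes. Nfasc encodes neurofascin, including the NF186 isoform of the axon initial segment, and Ank3 encodes its partner Ankyrin G (AnkG). The Pcp2 promoter drives Cre mainly in Purkinje cells, so RNA of the whole tissue also comes from the many cells in which no deletion is intended. All mice were untreated, of mixed sex and on a C57BL/6J or C57BL/6J;129 background, and the labels give both postnatal day 30 and postnatal day 32 as the age at collection.

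Serine is made from the glycolytic intermediate 3-phosphoglycerate in a short chain of reactions carried out by PHGDH, PSAT1 and PSPH. Serine hydroxymethyltransferases, SHMT1 in the cytosol and SHMT2 in mitochondria, then split serine into glycine and a one-carbon unit carried on folate, which MTHFD2 oxidizes further inside mitochondria. Glycine is broken down in mitochondria by the glycine cleavage system, of which GLDC and AMT are subunits. In the brain, de novo serine synthesis is known as mainly an astrocyte and radial glia activity, and neurons receive serine from glia. D2HGDH stands beside this chain, since it oxidizes D-2-hydroxyglutarate to 2-oxoglutarate, and PHGDH can form small amounts of that metabolite.

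The libraries held 38890851 to 55822361 reads counted on genes, so that 3 reads, the floor used here, corresponded to 0.0546 to 0.0780 CPM, the read count relative to the library total as scaled by the TMM method. This floor covers counting error only. Every gene of the 9 was above this floor in every library, with 114 reads (Shmt1, NFKO replicate 2) as the smallest count. Ank3 itself was at 363 ± 11.1 CPM over the controls (SD, n = 3), 392 ± 12.4 over NFKO (SD, n = 3), 178 ± 31.4 over AnkGKO (SD, n = 2) and 173 ± 12.7 over DKO (SD, n = 3). The whole-gene level of Nfasc overlapped between NFKO and control. In DKO it was lower without overlap, at 589 ± 26.5 CPM beside 690 ± 28.4 over the controls (SD, n = 3, edgeR adjusted p = 0.619). Defining genes of the labelled tissue were nearly absent from most libraries. Pcp2, a gene of Purkinje cells, reached 26.3 and 28.3 CPM in control replicate 1 and NFKO replicate 1 but lay between 0.0929 and 2.14 CPM in the other 9 libraries. The granule cell gene Gabra6 was at 84.2 and 59.0 CPM in the same 2 libraries and at most 4.41 CPM elsewhere, whereas 12 Hox genes of caudal identity summed to between 395 and 615 CPM in all 11. The calls of Phgdh and D2hgdh and the Gldc comparison are therefore also given without these 2 libraries. Xist, which is expressed in females, ranged from 459 to 598 CPM in 4 libraries, the first 2 controls and the last 2 of DKO, stood at 28.4 CPM in DKO replicate 1 and was at most 1.39 CPM in the third control and in every NFKO and AnkGKO library. Sex was thus spread unevenly over the genotypes and cannot be fully told apart from them, and fits with Xist as a covariate are given beside the calls of the 9 genes that they ended. Since the RNA is from bulk tissue, fewer cells of a type and less RNA per cell cannot be told apart in any value below.

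Per kilobase of exon, Psat1 was the highest of the 9 genes at 40.5 ± 3.12 CPM per kb (SD over n = 11 libraries). Mthfd2 followed at 7.75 ± 0.754, Amt at 7.42 ± 0.651 and Shmt2 at 6.64 ± 0.450 CPM per kb, and the SDs of Mthfd2, Amt and Shmt2 overlapped. Phgdh, which catalyses the first step of the chain ahead of Psat1, stood at 4.50 ± 1.56 CPM per kb, and Psph, which catalyses the last step, at 2.12 ± 0.196. Gldc at 0.640 ± 0.151, Shmt1 at 0.633 ± 0.239 and D2hgdh at 0.421 ± 0.162 CPM per kb were the lowest. Their SDs overlapped, but these SDs include differences between genotypes. Over the controls alone, D2hgdh at 0.337 ± 0.0477 lay below Shmt1 at 0.558 ± 0.0576 and Gldc at 0.761 ± 0.194 (SD, n = 3). These levels rest on exon lengths of the GENCODE vM39 annotation, which may not be the annotation used for counting, and with coding lengths alone Psph moved up to rank 3 and Phgdh down to rank 6.

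Sequence shared with other places in the genome bears on these levels, because 32.5% to 34.3% of the reads of each library were set aside as aligning to more than 1 place. Of the 100-base words of the canonical Phgdh transcript, 44.1% occur elsewhere in GRCm39 without a mismatch, and a single-end read of 100 bases from such a word cannot be placed uniquely. The closest copy is the processed pseudogene Gm7901 on chromosome 8, which matches the 1602 coding bases of Phgdh at 98.9% of 1595 aligned positions. The stretch of the Phgdh coding sequence from base 1347 to 1446 and its counterpart in Gm7901 (GRCm39 chr8:76438377-76438476, minus strand) are shown because they hold 6 of the positions at which a read can be told apart, in capitals.
Phgdh coding bases 1347 to 1446: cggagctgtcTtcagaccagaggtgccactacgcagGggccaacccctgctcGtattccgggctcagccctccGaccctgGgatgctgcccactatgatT
Gm7901: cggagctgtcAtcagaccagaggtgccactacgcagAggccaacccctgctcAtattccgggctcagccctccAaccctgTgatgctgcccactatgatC
For D2hgdh the share of 100-base words found elsewhere was 20.9%, mainly at nearby stretches of chromosome 1. These stretches span the pseudogenes Gm18666 and Gm7889, the long noncoding RNA genes Gm71297 and Gm71302 and the protein-coding genes Gal3st2b and Gal3st2c. The share was 0% for the other 7 genes. None of these pseudogenes is listed in the count table, so reads of Phgdh and D2hgdh that fall on shared stretches were not analysed here, and the measured levels of both genes may be too low by an amount that was not tested. Whether the loss differs between genotypes was not tested.

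The 9 genes and the lists below were chosen by name with earlier results of these same counts known, the comparisons of genotypes among them, and it is not recorded which values led to the choice. Fold changes of the 9 are therefore given as a description, and their p-values, adjusted over all 17557 genes by the Benjamini-Hochberg method in edgeR's quasi-likelihood test, place them in the whole-table fit and are no test of a gene chosen in advance. A gene is called higher or lower at an adjusted p under 0.05 with a log2 fold change of 0.6 or more in size. In NFKO against control 0 of the 9 genes were called, where 0.365% of all genes were called, and 0 of the 9 had an unadjusted p under 0.05, beside 7.69% of all genes. In AnkGKO against control 2 of the 9, Phgdh and D2hgdh, were called higher, where 0.120% of all genes were called higher. In DKO against control 0 were called, where 0.0228% of all genes were called, and Phgdh was the 1 gene of the 9 with an unadjusted p under 0.05, beside 7.77% of all genes. In DKO against NFKO, Phgdh was called higher (0.296% of all genes), and in DKO against AnkGKO, D2hgdh was called lower (0.125% of all genes). The plot of every library shows that both genes were high in AnkGKO and that they parted in DKO.

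**Figure D1:**
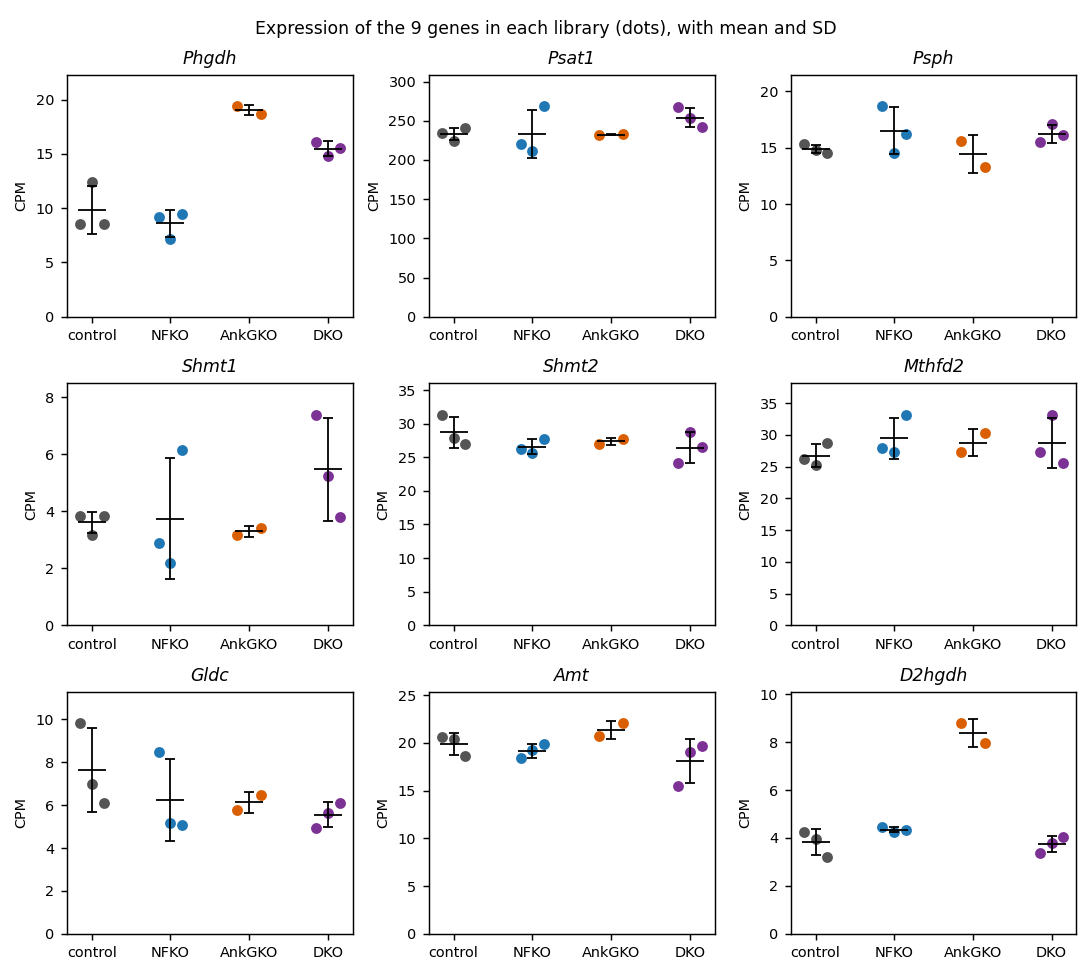
CPM of each of the 9 genes (vertical axes, TMM-scaled, starting at 0) in the 11 libraries, with 1 dot per library and the mean and SD of each genotype as bars. Phgdh is at 14.8 to 19.4 CPM in AnkGKO and DKO and at 7.13 to 12.4 CPM in control and NFKO, and D2hgdh is at 7.97 and 8.79 CPM in AnkGKO and at most 4.48 CPM elsewhere.

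Phgdh (ENSMUSG00000053398.13, GRCm39 chromosome 3 from 98220484 to 98255047, minus strand) encodes phosphoglycerate dehydrogenase, which commits 3-phosphoglycerate to serine. In control it was at 8.50, 12.4 and 8.57 CPM in replicates 1, 2 and 3, and in NFKO at 9.22, 7.13 and 9.42 CPM. The AnkGKO libraries were the highest, with 19.4 and 18.7 CPM, and the DKO libraries followed with 16.1, 14.8 and 15.5 CPM. The 5 libraries with the Ank3 deletion thus all exceeded the 6 without it, and the narrowest gap was between DKO replicate 2 and control replicate 2. Such a separation upward was met by 0.530% of all genes, and by none of the other 8. Against control the log2 fold change was 0.95 in AnkGKO (standard error 0.17, 95% confidence interval 0.59 to 1.32, edgeR adjusted p = 0.0468) and 0.65 in DKO (standard error 0.15, interval 0.33 to 0.98, edgeR adjusted p = 0.427), where DESeq2, unlike edgeR, made the call (adjusted p = 0.00752). Without control replicate 1 and NFKO replicate 1 the DKO value was 0.56 (edgeR adjusted p = 0.896). In NFKO it was -0.19 (interval -0.53 to 0.14, edgeR adjusted p = 0.902). Against NFKO, DKO was higher by 0.85 (standard error 0.15, edgeR adjusted p = 0.0244), and DKO lay below AnkGKO by -0.30 without passing the threshold (edgeR adjusted p = 0.645).
The interaction of the knockouts, which asks whether the AnkG effect depends on Nfasc, was -0.11 for Phgdh (interval -0.60 to 0.39, edgeR adjusted p = 0.922), so differences of the AnkG effect inside that interval were not resolved. The AnkGKO call was near its threshold and was lost when control replicate 1 and NFKO replicate 1 were left out (log2 fold change 0.86, edgeR adjusted p = 0.278), with only the libraries compared in the fit (0.95, edgeR adjusted p = 0.172), with Xist as a covariate (1.11, edgeR adjusted p = 0.196), and in 9 of the 11 fits without a single library, where the log2 fold change stayed between 0.86 and 1.16. The DKO against NFKO call was lost without those 2 libraries (0.90, edgeR adjusted p = 0.0662), with Xist as a covariate (0.67, edgeR adjusted p = 0.284), and in the fits without NFKO replicate 1, NFKO replicate 2, DKO replicate 1 or DKO replicate 3.

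The summed level of astrocyte markers moved with Phgdh, although the markers did not all go the same way. The sum over 14 astrocyte markers was 12288 to 13982 CPM in the 5 libraries with the Ank3 deletion and 10102 to 11521 CPM in the 6 without it, again with no overlap, and none of the 14 was at 0. No single marker separated the 2 sets. The sums of marker lists for Bergmann glia, Purkinje cells, granule cells, oligodendrocytes, microglia, endothelium, choroid plexus, meningeal fibroblasts and spinal motor neurons, and that of the Hox genes, each overlapped between the sets. Single genotypes did separate from control. In AnkGKO the microglia sum was higher (481 to 506 beside 356 to 432 CPM) and the Purkinje cell sum lower (332 to 343 beside 364 to 1183 CPM). In DKO the motor neuron sum was higher (479 to 597 beside 217 to 388 CPM) and the choroid plexus sum lower (7.16 to 7.75 beside 8.88 to 16.2 CPM). Gfap, an intermediate filament gene of reactive astrocytes and a large part of the astrocyte sum, was at 1982 to 3054 CPM in the libraries with the Ank3 deletion. In those without it, Gfap was at 1398 to 2151 CPM. Of the 14 markers, 5 were higher in AnkGKO than in control at an unadjusted p under 0.05, beside 5.39% of all genes in either direction. Of the 14, 0 were called (smallest edgeR adjusted p = 0.0535, Sox9), beside 0.120% of all genes called higher. The log2 fold change against control was above 0 for 13 of the 14 in AnkGKO (median 0.20) and for 12 in DKO (median 0.14). Slc1a2, also a large part of the sum, had 0.46 in AnkGKO and 0.13 in DKO. Slc1a3, a glutamate transporter gene, had log2 fold changes against control of -0.32 in AnkGKO and -0.40 in DKO, and Aqp4, a water channel gene, of 0.34 and -0.0047, none of them called. Over the 11 libraries, which share the grouping by genotype, log2 Phgdh and the log2 marker sum had a Pearson r of 0.92 and a Spearman rho of 0.86, and r was 0.87 without AnkGKO replicates 1 and 2, the libraries farthest from the median sum.
Taken per read of those markers, Phgdh still did not overlap between the sets, at 0.120% to 0.147% of their summed reads with the Ank3 deletion and 0.0705% to 0.112% without it. With the marker sum as a covariate, chosen after seeing the data, the AnkGKO log2 fold change was 0.60 (edgeR adjusted p = 0.741) and that of DKO against NFKO 0.60 (edgeR adjusted p = 0.692). The part of the astrocyte markers in the Phgdh difference was otherwise not tested.

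**Figure D2:**
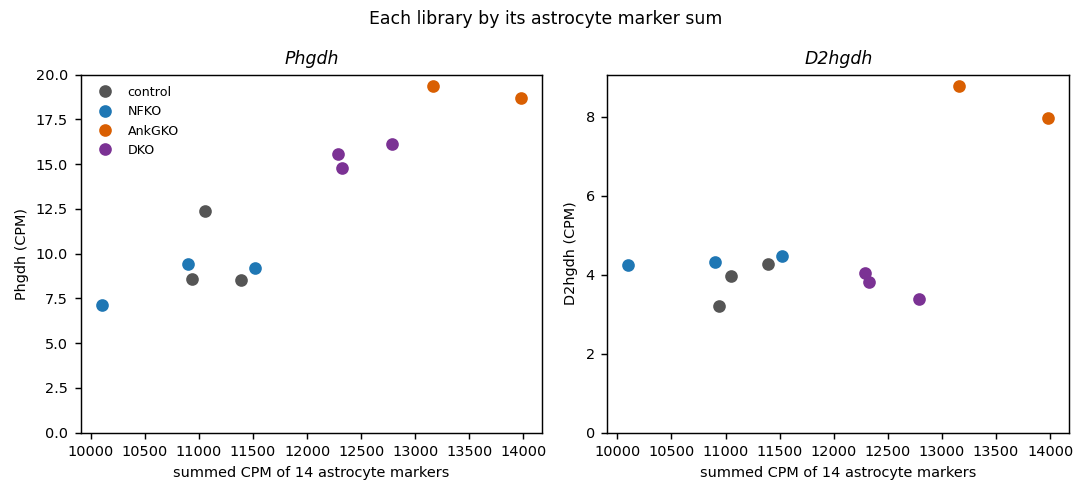
CPM of Phgdh (left) and D2hgdh (right) in each library against the summed CPM of 14 astrocyte markers, coloured by genotype, with 1 dot per library. The AnkGKO and DKO libraries lie at 12288 CPM of marker sum or more and at 14.8 CPM of Phgdh or more, whereas D2hgdh is high in the AnkGKO libraries alone.

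The next genes of the chain were called in no comparison. Psat1 (ENSMUSG00000024640.11, chromosome 19 from 15882039 to 15924701), which encodes phosphoserine aminotransferase, was at 234, 224 and 240 CPM in control and at 220, 211 and 269 CPM in NFKO. The AnkGKO libraries had 232 and 233 CPM, inside the control range, and the DKO libraries 267, 254 and 242 CPM, each above the highest control. A separation upward of this kind between DKO and control was met by 7.65% of all genes and by 3 of the 9, Phgdh, Psat1 and Psph, and the log2 fold change of Psat1 was 0.13 (interval -0.059 to 0.31, edgeR adjusted p = 0.707). As a share of Psat1 reads in the same library, Phgdh was 3.38% to 5.52% in the libraries without the Ank3 deletion and 5.82% to 8.36% in those with it, values that use no scaling between libraries. Psph (ENSMUSG00000029446.16, chromosome 5 from 129841925 to 129864513), the phosphatase that releases serine, was at 14.9 ± 0.388 CPM over the controls (SD, n = 3), 16.5 ± 2.08 over NFKO (SD, n = 3), 14.4 ± 1.66 over AnkGKO (SD, n = 2) and 16.2 ± 0.794 over DKO (SD, n = 3). Its smallest p came from DKO against AnkGKO (log2 fold change 0.17, interval -0.087 to 0.42, edgeR adjusted p = 0.726). Of the exon bases of Psph, 6.32% overlap Cct6a on the opposite strand, and whether the counting used strand is not given in the sources used here.

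**Figure D3:**
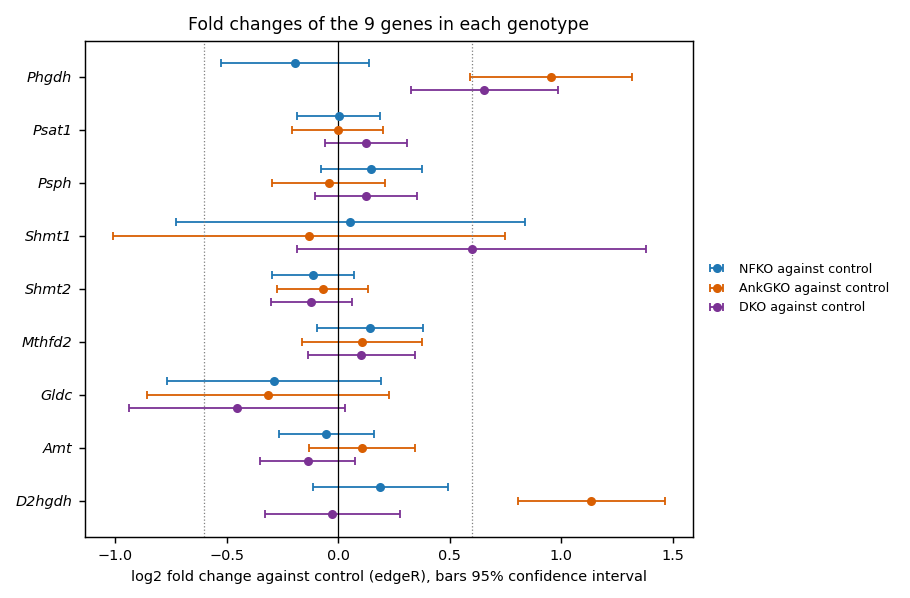
Log2 fold change against control (horizontal axis, edgeR) of the 9 genes in NFKO, AnkGKO and DKO, with 95% confidence intervals as bars and dotted lines at the fold threshold of 0.6. The intervals of Phgdh in AnkGKO and DKO and of D2hgdh in AnkGKO exclude 0, and every other interval shown includes it.

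Of the hydroxymethyltransferases, the mitochondrial Shmt2 (ENSMUSG00000025403.7, chromosome 10 from 127352266 to 127358323) had the smallest coefficient of variation of the 9 genes (6.78%), between 24.1 and 31.3 CPM over all 11 libraries. Its group means were 28.7 ± 2.31 CPM over the controls (SD, n = 3), 26.6 ± 1.09 over NFKO (SD, n = 3), 27.4 ± 0.548 over AnkGKO (SD, n = 2) and 26.4 ± 2.32 over DKO (SD, n = 3), and its log2 fold change in DKO against control was -0.12 (interval -0.30 to 0.063, edgeR adjusted p = 0.717). Shmt2 shares chromosome 10 with Ank3 at a distance of 57.5 Mb, and 17.7% of its exon bases overlap Ndufa4l2 on the opposite strand. Mthfd2 (ENSMUSG00000005667.10, chromosome 6 from 83282673 to 83302890), which encodes the mitochondrial methylenetetrahydrofolate dehydrogenase, lay between 25.2 and 33.2 CPM, with means of 26.7 ± 1.85 over the controls (SD, n = 3), 29.5 ± 3.23 over NFKO (SD, n = 3), 28.8 ± 2.14 over AnkGKO (SD, n = 2) and 28.7 ± 3.96 over DKO (SD, n = 3). Its smallest p was in NFKO against control (log2 fold change 0.14, interval -0.097 to 0.38, edgeR adjusted p = 0.899).

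The cytosolic Shmt1 (ENSMUSG00000020534.16, chromosome 11 from 60661185 to 60708167) varied most from library to library, relative to its mean, within NFKO and within DKO, though not within control or AnkGKO. It was at 3.82, 3.18 and 3.83 CPM in control and at 2.89, 2.20 and 6.15 CPM in NFKO. The AnkGKO libraries had 3.16 and 3.43 CPM, and the DKO libraries 7.40, 5.23 and 3.79 CPM. The span inside NFKO and inside DKO was thus wider than the gap between the highest and the lowest genotype mean, 5.47 CPM in DKO and 3.29 CPM in AnkGKO. The largest log2 fold change among the comparisons of genotypes, DKO against AnkGKO, was 0.73 (interval -0.16 to 1.62, edgeR adjusted p = 0.646). The 2 highest libraries for Shmt1, DKO replicate 1 and NFKO replicate 3, were also the 2 highest for Psat1, and NFKO replicate 2 was the lowest for both. Among 11700 genes with a mean of at least 5 CPM, Psat1 was the closest to Shmt1 over the 11 libraries, with a Pearson r of 0.98 and a Spearman rho of 0.95, and r was 0.97 without the 2 libraries farthest from the median of Shmt1.
The proportion was not fixed. Shmt1 spanned 3.37-fold over the libraries and Psat1 1.27-fold, and Shmt1 reads were 1.04% to 2.77% of Psat1 reads. The annotation places Gm12611, a processed pseudogene that shares 37 words of 50 bases but no word of 100 bases with Psat1, on the opposite strand within Shmt1, where it covers 3.1% of the Shmt1 exon bases. Whether Psat1 reads with mismatches were counted there was not tested.

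**Figure D4:**
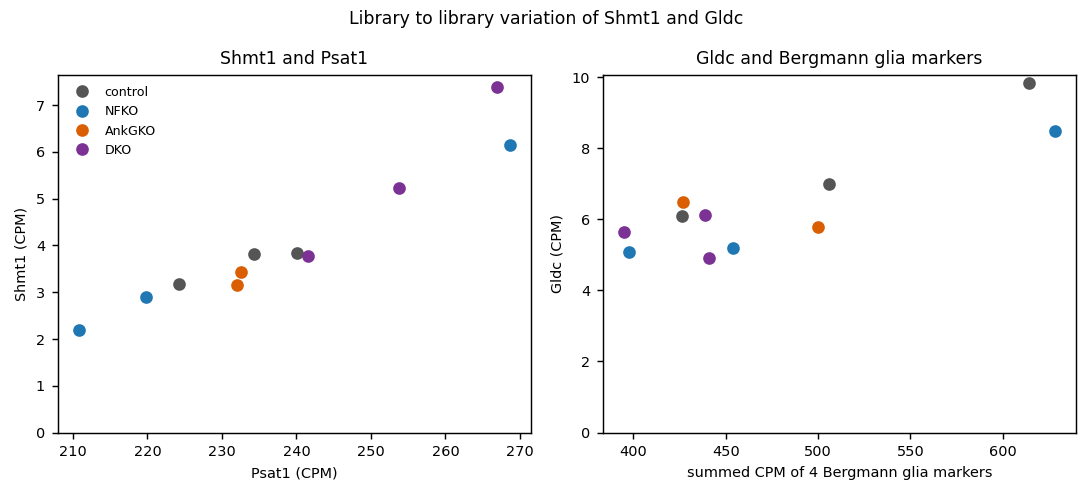
Left, Shmt1 CPM against Psat1 CPM in each library. Right, Gldc CPM against the summed CPM of 4 Bergmann glia markers. DKO replicate 1 (7.40 CPM) and NFKO replicate 3 (6.15 CPM) are highest for Shmt1 and also highest for Psat1, and control replicate 1 and NFKO replicate 1 are highest for Gldc and for the Bergmann glia markers.

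Of the glycine cleavage genes, Gldc (ENSMUSG00000024827.12, chromosome 19 from 30071975 to 30152871) encodes the decarboxylase subunit. It was at 9.83, 6.99 and 6.09 CPM in control and at 8.47, 5.18 and 5.07 CPM in NFKO. The AnkGKO libraries had 5.78 and 6.47 CPM, and the DKO libraries 4.92, 5.65 and 6.12 CPM. The 2 highest libraries, control replicate 1 and NFKO replicate 1, were those with Pcp2 and Gabra6, and they also had the most Bergmann glia marker RNA, 614 and 628 CPM against 395 to 506 CPM in the other 9. The log2 fold change in DKO against control was -0.45 (interval -0.94 to 0.028, edgeR adjusted p = 0.643). With control replicate 1 and NFKO replicate 1 left out it was -0.23, and the fits without 1 library placed it between -0.59 and -0.23. Gldc and the Bergmann glia marker sum had a Pearson r of 0.84 and a Spearman rho of 0.59 over the 11 libraries, and r was 0.40 without control replicate 1 and NFKO replicate 1. The part of cerebellar tissue in the level of Gldc was not tested further.
Amt (ENSMUSG00000032607.14, chromosome 9 from 108173865 to 108179501) encodes the aminomethyltransferase subunit, which hands the one-carbon unit to folate. Its means were 19.9 ± 1.11 CPM over the controls (SD, n = 3), 19.2 ± 0.750 over NFKO (SD, n = 3), 21.4 ± 0.944 over AnkGKO (SD, n = 2) and 18.1 ± 2.31 over DKO (SD, n = 3). Both AnkGKO libraries, at 20.7 and 22.1 CPM, lay just above the highest control at 20.6 CPM, a separation that 11.7% of all genes met upward, and above all 3 DKO libraries, which 11.3% of all genes met in that direction. In DKO against AnkGKO the log2 fold change was -0.24 (interval -0.48 to -0.0061, edgeR adjusted p = 0.580).

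D2hgdh (ENSMUSG00000073609.11, chromosome 1 from 93751963 to 93786214, plus strand) was high in a single genotype. It was at 4.26, 3.97 and 3.21 CPM in control and at 4.48, 4.24 and 4.33 CPM in NFKO. The AnkGKO libraries had 8.79 and 7.97 CPM, while the DKO libraries had 3.38, 3.81 and 4.04 CPM. Both AnkGKO libraries thus lay above every other library, and the DKO libraries lay within the control range although they carry the same AnkG deletion. The log2 fold change of AnkGKO against control was 1.14 (standard error 0.15, interval 0.81 to 1.47, edgeR adjusted p = 0.00811), and that of DKO against control was -0.026 (interval -0.33 to 0.28, edgeR adjusted p = 0.974). DKO fell by 1.16 on the log2 scale against AnkGKO (standard error 0.15, edgeR adjusted p = 0.00776), and the interaction of the knockouts was -1.35 (standard error 0.21, interval -1.80 to -0.90, edgeR adjusted p = 0.0118), where 0.319% of all genes were called negative. In NFKO alone the value was 0.19 (interval -0.11 to 0.49, edgeR adjusted p = 0.887).
These differences rest on 2 AnkGKO libraries. Without AnkGKO replicate 1 the AnkGKO log2 fold change was 1.06 (edgeR adjusted p = 0.117) and the interaction -1.28 (edgeR adjusted p = 0.0738), and without either AnkGKO library the call in DKO against AnkGKO was lost (edgeR adjusted p = 0.113 and 0.0596). With only the libraries compared in the fit the calls against control and against DKO were lost as well (edgeR adjusted p = 0.0681 and 0.0765), and without control replicate 1 and NFKO replicate 1 the interaction was -1.42 (edgeR adjusted p = 0.0522), while the calls against control (1.22, edgeR adjusted p = 0.0406) and against DKO (edgeR adjusted p = 0.026) were kept. With Xist as a covariate the interaction was -1.89 and no longer passed (edgeR adjusted p = 0.0698). The astrocyte marker sum was higher in both AnkGKO and DKO, unlike D2hgdh. With that sum as a covariate the AnkGKO log2 fold change was 1.09 without passing (edgeR adjusted p = 0.486), and the interaction was -1.34 (edgeR adjusted p = 0.0257).
D2hgdh lies 38.7 Mb from Nfasc on chromosome 1. Of the 23 tested genes within 1 Mb of it, 0 were called in AnkGKO against control by edgeR. An unadjusted p under 0.05 was met by 4 of the 23, beside 5.39% of all genes. The log2 fold changes of the 23 ranged from -0.52 to 2.03, with a median of 0.012. Near Phgdh, 0 of 12 tested genes were called in that comparison, and 2 had an unadjusted p under 0.05, beside the same 5.39% of all genes. Their values ranged from -3.28 to 0.52, with a median of 0.012.

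The 250 bases before the start of the canonical transcript are shown for the 2 genes that were called, on the strand of the gene and numbered in GRCm39, to set their sequence features side by side. The letters searched on both strands were TGATGNAA (ATF4 element), TGACNNNGC (antioxidant response element), CACGTG (E-box), GGGCGG (GC box), CCAAT for the box of that name, and TATAAA for the TATA box, matches are in capitals, and the CCAAT and TATA matches of Phgdh overlap by 1 base.
Phgdh (chr3:98247307-98247556, minus strand): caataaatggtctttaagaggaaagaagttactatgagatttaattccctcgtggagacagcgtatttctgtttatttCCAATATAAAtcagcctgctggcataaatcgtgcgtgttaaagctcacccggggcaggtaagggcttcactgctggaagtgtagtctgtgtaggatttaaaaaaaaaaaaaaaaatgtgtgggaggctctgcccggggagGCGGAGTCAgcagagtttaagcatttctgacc
D2hgdh (chr1:93752682-93752931, plus strand): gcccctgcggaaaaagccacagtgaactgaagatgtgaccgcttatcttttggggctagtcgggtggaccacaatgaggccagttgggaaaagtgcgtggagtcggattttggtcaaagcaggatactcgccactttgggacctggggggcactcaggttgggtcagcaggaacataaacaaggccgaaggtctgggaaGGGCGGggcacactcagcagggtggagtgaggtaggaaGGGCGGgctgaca
The windows of Phgdh and D2hgdh had none of these motifs in common. Phgdh held the letters of a TATA box (11.9% of 21770 windows of the same length), of a CCAAT box (36.5%) and of an antioxidant response element (9.69%). It was the only gene of the 9 with the first and the last. Whether these letters act as such elements was not tested. D2hgdh held the GC box (36.3%), which 3 others of the 9, Psph, Shmt1 and Gldc, also held. The ATF4 letters (3.39% of windows) and the E-box (6.26%) were found in none of the 9 windows, which says only that these letters are not there.

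The other genes of the pathway were read from 6 lists holding 78 genes, of which 77 were tested. In NFKO, AnkGKO and DKO against control, edgeR called 0 of the 77, while 7, 6 and 6 of them had an unadjusted p under 0.05, beside 7.69%, 5.39% and 7.77% of all genes. The medians of their log2 fold changes were 0.0038, 0.0021 and 0.055, beside -0.0050, -0.0050 and -0.00062 over all genes tested. In DKO against NFKO edgeR called 0, beside 0.615% of all genes, while DESeq2 called 1 (Slc38a5), and 15 had an unadjusted p under 0.05, beside 16.2%, and in DKO against AnkGKO edgeR called 1. No list stood out by its count of calls. In AnkGKO against control, 4 of the 6 genes with an unadjusted p under 0.05 were among the 17 of the methionine cycle and transsulfuration list. Of these, 1 was higher and 3 were lower, and the list had a median log2 fold change of -0.16. In DKO against AnkGKO its median was 0.10, beside 0.0033 over all genes. Of 17 genes that transport or interconvert serine and glycine, edgeR called 0 in any comparison. Slc38a5, which DESeq2 called in DKO against NFKO, is a glutamine and serine transporter of the system N type and had the smallest p over all genotypes (edgeR adjusted p = 0.298), with 6.12 ± 1.07 CPM in control (SD, n = 3) and 10.2 ± 2.01 in NFKO (SD, n = 3). Gcat, which makes glycine from a breakdown product of threonine, was next (edgeR adjusted p = 0.340).
Of 20 tested folate cycle genes 0 were called, with Aldh1l1 (edgeR adjusted p = 0.388), which oxidizes 10-formyltetrahydrofolate and is itself an astrocyte marker, and Fpgs (edgeR adjusted p = 0.437), which adds glutamates to folate, as the genes of smallest p over all genotypes. Among 5 partners of the glycine cleavage system, Lias, the lipoyl synthase, had the smallest p (edgeR adjusted p = 0.526) and Lipt1, a lipoyltransferase, the next (edgeR adjusted p = 0.843). Of 5 genes of 2-hydroxyglutarate metabolism beside D2hgdh, 0 were called, and Adhfe1, which can form D-2-hydroxyglutarate, had the smallest p (edgeR adjusted p = 0.481), ahead of Ldhd (edgeR adjusted p = 0.691). ATF4 is a stress-activated transcription factor whose known targets include Phgdh, Psat1, Shmt2 and Mthfd2. Of ATF4 and 14 of its other known targets and regulators 0 were called in any comparison, and the smallest p over all genotypes were those of Asns, asparagine synthetase (edgeR adjusted p = 0.324), and Atf5 (edgeR adjusted p = 0.446).

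**Figure D5:**
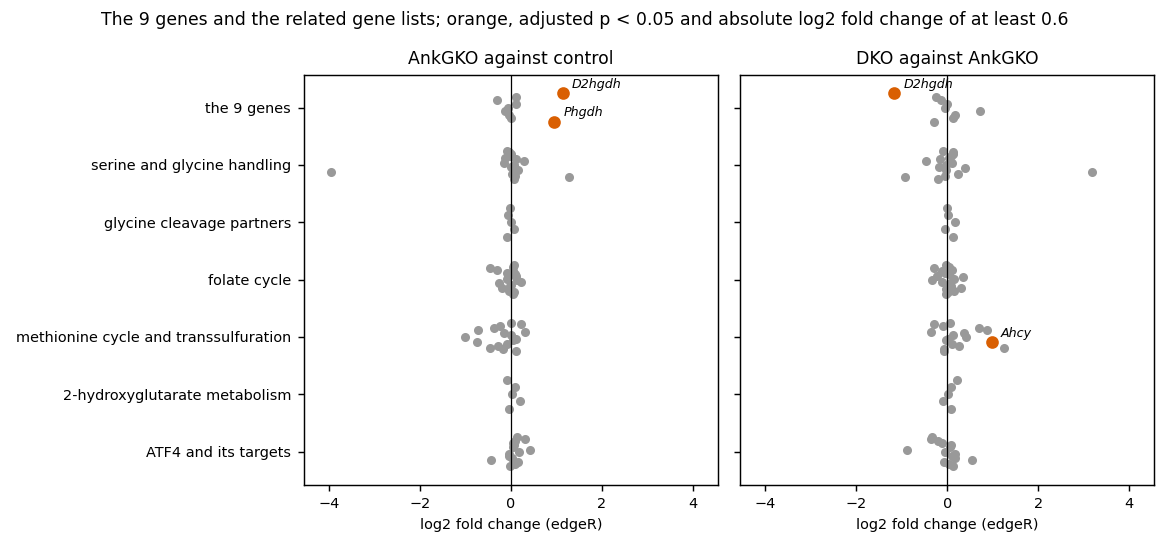
Log2 fold change (horizontal axes, edgeR) of the 9 genes and of the genes of 6 related lists, 1 dot per gene, in AnkGKO against control (left) and DKO against AnkGKO (right). Orange dots mark genes called at an adjusted p under 0.05 with a log2 fold change of 0.6 or more in size, which are Phgdh and D2hgdh on the left and D2hgdh and Ahcy on the right.

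The methionine cycle and transsulfuration list held the 1 called gene. Ahcy, the enzyme that splits S-adenosylhomocysteine, was at 4.58, 4.51 and 4.14 CPM in control, 4.90, 5.53 and 5.09 CPM in NFKO, 2.37 and 2.89 CPM in AnkGKO and 5.34, 5.37 and 4.82 CPM in DKO. The AnkGKO libraries were thus the lowest, the opposite of D2hgdh. Ahcy was higher in DKO than in AnkGKO (log2 fold change 0.98, standard error 0.15, edgeR adjusted p = 0.0236, where 0.0456% of all genes were called higher) and passed the test over all genotypes (edgeR adjusted p = 0.0265, where 0.723% of all genes passed). AnkGKO against control was -0.74 (edgeR adjusted p = 0.101), where DESeq2, unlike edgeR, called Ahcy lower (DESeq2 adjusted p = 0.00138). Of its 100-base words 72.0% occur elsewhere in the genome, and the DKO against AnkGKO call was lost in 4 of the 11 fits without 1 library, those without AnkGKO replicate 1 or 2 or DKO replicate 1 or 3. The call over all genotypes was lost in 12 of 19 alternatives, among them 7 of the 11 fits without 1 library (edgeR adjusted p up to 0.229). Cbs, which joins serine to homocysteine and so draws on the serine pool, was higher in DKO than in NFKO at a log2 fold change of 0.58 (standard error 0.11, edgeR adjusted p = 0.0341), below the fold threshold, with 46.7 to 54.6 CPM in DKO and 32.3 to 37.2 CPM in NFKO. Chdh, choline dehydrogenase, which feeds methyl groups through betaine, was at 27.7 ± 1.34 CPM in NFKO (SD, n = 3) and 19.5 ± 0.180 in control (SD, n = 3), without passing (log2 fold change 0.51, edgeR adjusted p = 0.203).

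Over the 11 libraries the 9 genes did not vary as a group. Of their 36 pairs, 21 had a Pearson r above 0 for log2 CPM and the median r was 0.059, and Psat1 with Shmt1 was the pair with the highest r. The gene closest to Phgdh among the 11700 was Glud1, glutamate dehydrogenase, with a Pearson r of 0.91 and a Spearman rho of 0.89, followed by Cbr4 (r 0.91) and Adcyap1r1 (r 0.89). The closest gene to D2hgdh was Ywhaq (r 0.97), but r was 0.81 without the 2 AnkGKO libraries. For the others the closest genes were Psmd13 to Psat1 (r 0.96), H47 to Psph (r 0.85), Gtpbp2 to Shmt2 (r 0.92), Tmem189 to Mthfd2 (r 0.90), Rnf182 to Gldc (r 0.94) and Wdr92 to Amt (r 0.94). Shmt1, which was closer to Psat1 (r 0.98), was not among the 11700, since its mean of 4.10 CPM is under the cut of 5 CPM. These are descriptions over libraries that share genotypes, and no p is attached to them.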

How the data were processed

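Per the labels, polyadenylated RNA (RIN of at least 8.2) was sequenced in bulk with single-end reads of 100 bases, whereas the study's methods state paired-end reads. The labels name FastQC 0.12.1, Trimmomatic 0.39, STAR 2.7.11a, DESeq2 1.40.2 and GRCm39 for the authors' processing, and the strand setting of the counting is not given in the sources used here. The authors deposited raw counts per gene, which were used for all tests, and a normalized signal, found to be those counts over 1 size factor for each library (0.815 to 1.16). The 5 closing lines of the count table (32.5% to 34.3% of reads aligned to several places in each library, for example) were left out, and 0 columns were unused. The labels call the libraries of a genotype biological replicates, and the study's methods give n as mice per genotype.

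Genes with at least 10 counts in total were fitted in edgeR 4.0.16 (R 4.3.3, TMM, robust quasi-likelihood fit over all 4 genotypes, tested on simulated data), and CPM are TMM-scaled. The 9 genes and all lists were chosen with earlier results of these data known. Pathway genes are named when called in any comparison or among the 2 of smallest p over all genotypes in their list, with Cbs added after its values were seen. Likeness is the Pearson r of log2 CPM (prior count 2). Positions and lengths are from GENCODE vM39, and shared sequence was counted as words of 50 or 100 bases found elsewhere in GRCm39. Alternatives were DESeq2 1.42.0 (local fit), its size factors, 2 other filters, only the libraries compared, a replicate block, no fold threshold, Xist as a covariate, each library left out, and, chosen after seeing the data, 2 marker covariates and 2 libraries left out together. Libraries with the same replicate number deviated together from their group means in control and NFKO (r of 0.36, 0.31 and 0.18 over genes for replicates 1, 2 and 3). The main fits, that of NFKO against control included, used no pairing, and the replicate block was an alternative only. What the numbers stand for is not stated.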

Additional observations from a re-analysis of the deposited data

Results flagged for a closer look

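D2hgdh was picked out by a difference between groups, since the effect of the AnkG deletion with and without the Nfasc deletion gave an interaction of -1.35 on the log2 scale (edgeR's quasi-likelihood test, Benjamini-Hochberg adjusted p = 0.0118). D2hgdh was chosen with earlier results of these counts known, so this p is a description and no independent test, and it was 0.0698 in edgeR with Xist as a covariate. D2hgdh was higher by 1.14 in AnkGKO against control, in 2 of 2 libraries, and DKO lay 0.21 below NFKO without passing the threshold (edgeR adjusted p = 0.470). No genotype had the 4 or more libraries needed to look for a single outlying value.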

How the results depend on the processing

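Over 22 alternatives, 37 values for single genes gave 770 refits, of which 695 kept direction and call, 59 lost a call, 9 gained one and 7 changed sign. Beside the main counts of called genes (of the 9: 2 in AnkGKO against control, 1 in DKO against NFKO, 1 in DKO against AnkGKO, 1 for the interaction and 2 over all genotypes), the count for AnkGKO against control was 1 with the replicate block, the Xist covariate, the granule cell marker covariate or without the 2 libraries richest in granule cell markers, and 0 with only the libraries compared or the astrocyte marker covariate. For DKO against NFKO it was 0 with the replicate block, the Xist covariate, either marker covariate or without those 2 libraries. For DKO against AnkGKO it was 0 with only the libraries compared or the astrocyte covariate, for the interaction 0 with the Xist covariate or without the 2 libraries, and over all genotypes 1 without the 2 libraries or with the granule cell covariate and 0 with the astrocyte covariate. DESeq2 called 1 of the 9 in DKO against control, Phgdh (adjusted p = 0.00752). Leaving out 1 library gave 0 to 2 for AnkGKO against control, 0 to 1 for DKO against NFKO, DKO against AnkGKO and the interaction, and 1 to 2 over all genotypes. In the refits with a single AnkGKO library, that library was assumed to vary like the other genotypes.

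Of the pathway genes, DESeq2 called 1 in AnkGKO against control, 1 in DKO against NFKO, 2 in DKO against AnkGKO and 3 for the interaction. The count for DKO against NFKO was 1 with the Xist covariate or no fold threshold. That for DKO against AnkGKO was 0 with only the libraries compared, the Xist or astrocyte covariate or without the 2 libraries. Over all genotypes it was 2 with no filter and 0 with the replicate block, the Xist covariate, either marker covariate or without the 2 libraries. Leaving out 1 library gave 0 to 1 for DKO against NFKO and 0 to 2 for DKO against AnkGKO and over all genotypes. The cause of these changes was not tested.

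The replicate block, an alternative to the main fit without pairing, changed no call in NFKO against control. In the other comparisons the samples share only a number, with r between -0.28 and 0.35, and under the block Phgdh had a log2 fold change of 0.95 in AnkGKO against control (edgeR adjusted p = 0.167) and of 0.85 in DKO against NFKO (edgeR adjusted p = 0.0583). The changes of sign were in values near 0. D2hgdh in DKO against control was 0.060 without the 2 libraries, 0.059 with the granule cell covariate and -0.14 to 0.060 over fits without 1 library. The interaction of Phgdh was 0.042 without the 2 libraries and 0.0032 with the astrocyte covariate, and Phgdh in NFKO against control ranged from -0.29 to 0.0078 without 1 library. The ratio of the highest to the lowest level per kilobase was 96.3 with exon lengths, 170.0 with the longest transcript and 103 with coding length. Over all genes the number called ranged from 5 to 102 in AnkGKO against control (main 29), 29 to 159 in NFKO against control (main 64), 3 to 44 in DKO against control (main 4), 12 to 418 in DKO against NFKO (main 108), 10 to 99 in DKO against AnkGKO (main 30), 19 to 318 for the interaction (main 93) and 62 to 169 over all genotypes (main 127).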
